A study of Mus musculus with 12 samples.

Results

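The genes described here are 10 genes of the neuronal cytoskeleton: the microtubule-associated proteins Map1a, Map1b, Map2, Map4 and Map6, the neurofilament subunits Nefl, Nefm and Nefh, and the growth-cone and tubulin-binding proteins Stmn2 and Gap43. They were chosen by name, and their m5C peaks are those that overlap the mm10 span of the gene on its own strand by at least 1 base. All 10 had a peak in at least 1 list, among 9385 protein-coding genes that did, and they held 130 of the peaks. Microtubule-associated proteins bind along microtubules and stabilise or space them in axons and dendrites. Neurofilaments are the intermediate filaments of axons, built as mixed polymers of a light, a medium and a heavy subunit. 5-Methylcytosine (m5C) is a methylated base that is found in RNA as well as in DNA.

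The lists came from hippocampus of female wild-type C57BL/6 mice of 18 months (natural aging, called aged here) and of 3 months (young). For each age, 3 libraries of RNA captured with an m5C antibody (IP) were paired with 3 libraries of RNA that was not captured (input). Each IP and its input gave 1 peak list, so there were 3 aged and 3 young lists. The labels do not say whether the lists of an age came from separate animals, so p-values measure the spread between these lists, which may be partly technical.

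The aged lists held 15189, 14008 and 14294 peaks and the young lists 9887, 8549 and 10392. The number of reads behind them is unknown. A peak depends on the abundance of a transcript as well as on its enrichment, and in bulk tissue fewer cells of a type and less RNA per cell cannot be told apart. Of 6 marker genes per cell type, pyramidal neuron markers had a peak in 5 to 6 genes in aged and in 5 to 6 in young lists, astrocyte markers in 5 to 6 and in 3 to 5, and oligodendrocyte markers in 3 to 4 and in 2 to 4. Inhibitory neuron markers had a peak in 2 to 3 genes in aged lists and in 0 in young lists, microglia markers in 1 to 2 and in 1, and endothelial markers in 2 to 3 and in 1 to 2. Their part in the results below was not tested.

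Every aged list held more peaks in these genes than every young list. There were 27, 25 and 27 peaks in the aged lists, against 18, 15 and 18 in the young lists, or 26.3 ± 1.15 and 17.0 ± 1.73 (SD, n = 3 each), a ratio of 1.55. For whole lists the ratio was 1.51. Per 10000 peaks of a list, the genes held 17.8, 17.8 and 18.9 in the aged lists and 18.2, 17.5 and 17.3 in the young lists, so the ages overlapped on this scale. When each list was cut to the length of the shortest by score, the genes held 21.7 ± 3.21 peaks in the aged and 16.7 ± 1.53 in the young lists (SD, n = 3 each). The ages then met, since aged list 2 held as many peaks in these genes as young list 3. The difference per 10000 peaks was 5.85 in place of 0.48, which at equal length is the difference in peaks on another scale. The mean difference per gene was then 0.5 over the 10 genes and 0.0106 over all genes with a peak. Because the cut was by score, the aged lists kept a larger share of the peaks of these genes, which ranked high, than of all their peaks. What this does to the difference was not tested. A peak was present in 10, 10 and 9 of the 10 genes in the aged lists, against 9, 8 and 8 in the young lists. All 6 lists had a peak in 8 of the genes, beside 31.8% of all genes with a peak, and 0 genes had peaks in every aged list and in no young list, beside 4.19% of all. Over the genes, the median difference in peaks per list (aged minus young) was 0.67, beside 0.33 over all genes with a peak. The mean was higher in aged lists for 8 genes, equal for Nefl and Gap43 and lower for 0, whereas over all genes with a peak it was higher for 64.8% and lower for 19.7%.

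**Figure D1:**
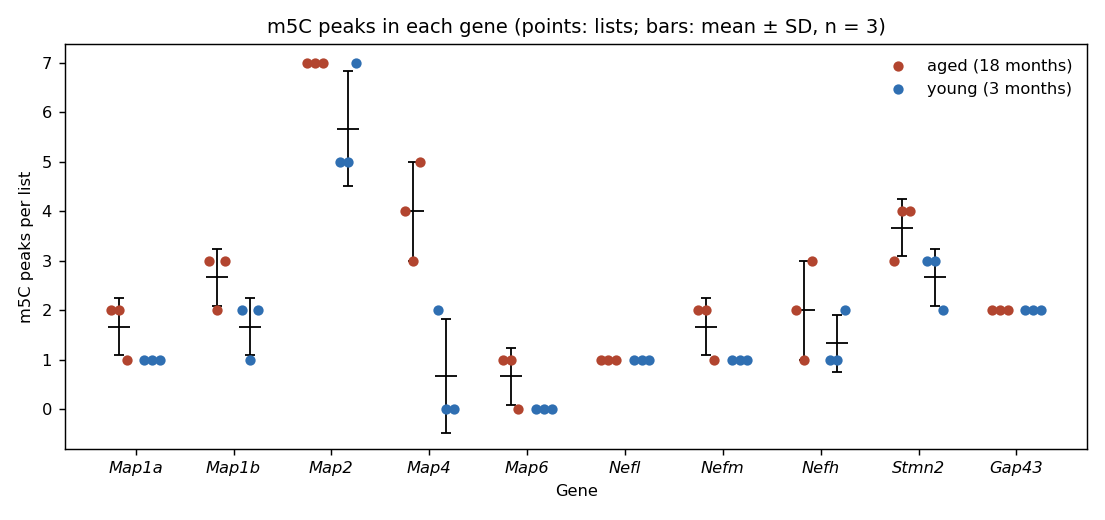
Number of m5C peaks per list (vertical axis) in each of the 10 genes (horizontal axis), for aged lists on the left and young lists on the right of each gene. Points are lists and black bars are the mean ± SD (n = 3). Map4 is the gene whose aged lists (3 to 5 peaks) all lie above its young lists (0 to 2 peaks), and Nefl and Gap43 have the same number in every list.

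Peaks of any list that met or overlapped on a strand were joined into regions, which gave 33 regions in the 10 genes. Of these, 14 (42.4%) had a peak in all 6 lists, a share that was 17.6% over the 23951 regions in protein-coding genes. These constant regions lay in 8 of the genes, all but Map4 and Map6. Another 9 regions (27.3%) were found in a single list, compared with 34.8% over all genes. In 19 regions more aged than young lists had a peak, in 14 the numbers were equal, and in 0 were there more young than aged lists. Over all genes, 56.4% of regions had more aged lists and 17.7% more young lists. A single region, at a start of Map4, was present in every aged list and absent from every young list, which is 1 of 33 beside 5.17% of all regions. The opposite pattern, 3 young and 0 aged lists, was found in 0 of 33 regions beside 0.622% of all.

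**Figure D2:**
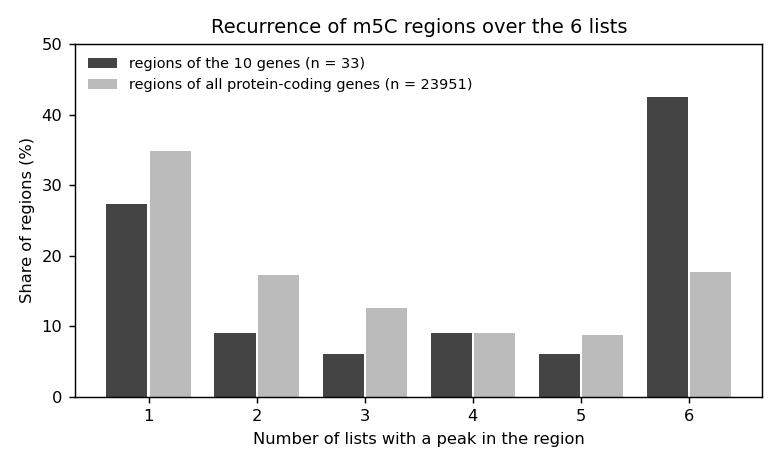
Share of regions in percent (vertical axis) by the number of lists with a peak in the region (horizontal axis), for the 33 regions of the 10 genes (dark bars) and the 23951 regions of all protein-coding genes (light bars). Regions in all 6 lists make up 42.4% of the dark and 17.6% of the light bars.

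The peaks were wide and ranked high in their lists. Their median width was 720 bases, beside 220 bases for peaks in all protein-coding genes. Peaks of 1000 bases or more made up 44.4%, 48.0% and 40.7% of the peaks in these genes in the aged lists and 50%, 46.7% and 50% in the young lists. For peaks in all genes that share was 13.9% to 16.7% over the 6 lists. The score is the authors' own value per peak and starts at about 50. In each list 274 to 684 peaks tie at 3100, and the highest score is 3225 to 3233. Scores and percentiles therefore describe a peak within its own list, and ranks in lists of unequal length show no change between ages. The median peak of the 10 genes stood at the 87.3rd, 74.0th and 83.4th percentile of its aged list and at the 91.7th, 92.7th and 91.6th of its young list. Scores of 3100 or more were held by 10, 7 and 7 of the peaks in the aged lists and by 7, 4 and 6 in the young lists. These are 25.9% to 37.0% of the peaks of the 10 genes in the aged lists and 26.7% to 38.9% in the young lists, where peaks in all genes had 4.41% to 4.66% in the aged and 3.30% to 4.19% in the young lists.

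Most regions lay toward the 3' end. Their midpoints lay beyond the middle of the gene span in 24 of 33 regions (72.7%), beside 65.9% over all genes, and in 13 of the 14 constant regions, beside 62.8% over all constant regions. The exception among the constant regions was at the start of Gap43. Of the 14 constant regions, 10 had exactly the same first and last base in every list, as did 69.0% of the constant regions of all genes. The annotation used holds gene spans and no exons, so whether such shared ends are exon ends was not tested. A peak was counted as near a gene end when its midpoint lay within 1000 bases of the start or end of the span. This held for 22.2%, 20% and 18.5% of the peaks in the aged lists and 16.7%, 20% and 16.7% in the young lists. For peaks in all genes it was 18.2% to 19.6%. Wide peaks can reach an end and still not count, as with the 3' region of Map1b, whose midpoint lay 2248.5 bases from the end. The peaks of the 10 genes were wider than those of all genes, so these shares are not a like comparison of reach.

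**Figure D3:**
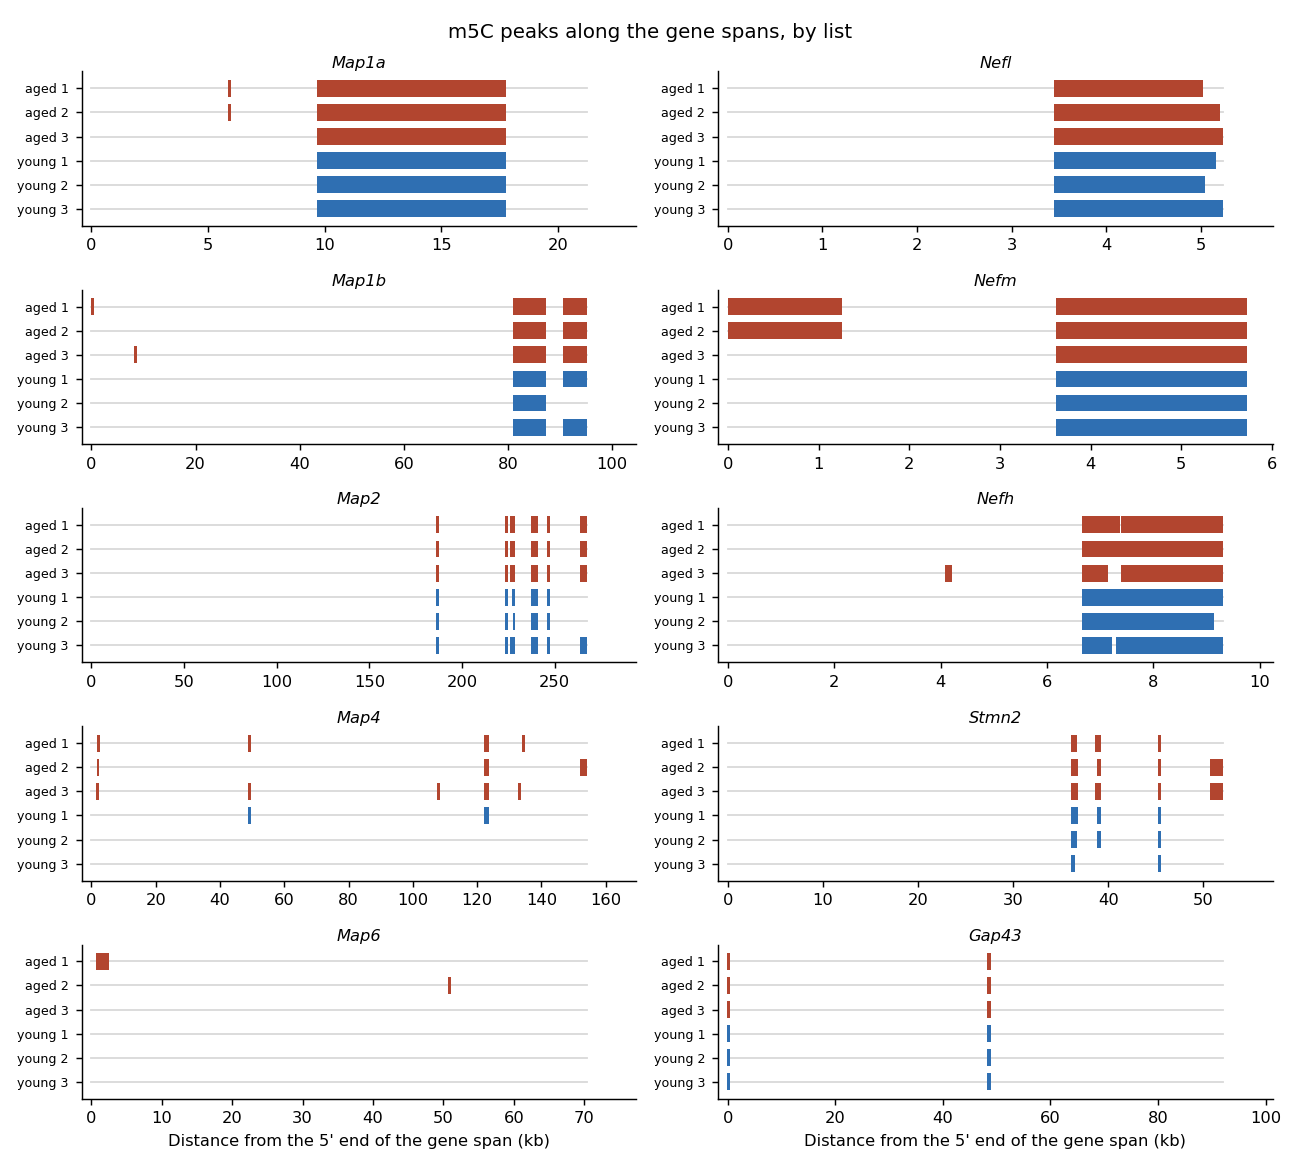
Position of every peak along the 10 gene spans, drawn from 5' to 3' as distance from the start of the span in kb (horizontal axis), with 1 row per list, aged lists above young lists. Coloured blocks are peaks (very narrow peaks are widened to be visible) and grey lines are the spans. The block patterns of Nefl and Gap43 recur in all 6 rows, whereas those of Map4 and Map6 are mostly or wholly in the aged rows.

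At 2 of the genes, Map4 and Map1b, peaks reached into the first 100 bases after an annotated transcription start for which a promoter sequence was at hand. These peaks came from aged lists and, at the inner start of Map4, from young list 1 as well. RefSeq promoter windows (GRCm38.p6, which is mm10) were matched for 4 of the 10 genes, with 2 starts in Map4. The 70 bases before each start and the first 30 transcribed bases are shown for the starts with a peak in their first 100 bases, and for Map2 and Map1a as starts without one, so that their base composition can be compared. Lower case marks the bases before the start and capitals the transcribed bases.
Map4, first start, chr9:109931704-109931803, plus strand: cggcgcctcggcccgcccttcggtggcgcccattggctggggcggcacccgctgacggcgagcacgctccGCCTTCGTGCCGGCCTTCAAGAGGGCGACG
Map4, inner start, chr9:110051951-110052050, plus strand: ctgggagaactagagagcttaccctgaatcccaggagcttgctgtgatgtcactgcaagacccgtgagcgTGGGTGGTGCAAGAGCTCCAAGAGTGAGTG
Map1b, chr13:99516573-99516672, minus strand: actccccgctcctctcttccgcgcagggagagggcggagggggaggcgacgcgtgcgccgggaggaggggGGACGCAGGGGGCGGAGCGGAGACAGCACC
Map2, chr1:66175259-66175358, plus strand: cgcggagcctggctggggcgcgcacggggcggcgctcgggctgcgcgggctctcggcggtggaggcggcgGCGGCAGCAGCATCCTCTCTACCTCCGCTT
Map1a, chr2:121289532-121289631, plus strand: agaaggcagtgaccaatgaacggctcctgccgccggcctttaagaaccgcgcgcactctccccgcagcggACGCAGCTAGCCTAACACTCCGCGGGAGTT
The capitals hold 10 cytosines at the first Map4 start, 4 at the inner one, 8 in Map1b, 13 in Map2 and 10 in Map1a. At the first Map4 start the peaks of aged lists 1 and 2 began beyond these capitals. At the inner start the peaks began 27 bases after the start, so most of the capitals lie outside them. Of the 300 bases of a whole window, 250 lie before the start, outside a transcript that begins there. Values over the window thus describe promoter DNA and not the peaks. Over the window, the first Map4 start had 73.3% G and C and 42 CpG, the inner start 46.0% and 5, Map1b 65.7% and 23, Map2 77.7% and 37, and Map1a 65.7% and 27. The median over 32851 windows was 52.7% and 7 CpG. The Map2 and Map1a starts had no peak in their first 100 bases in any list. Map2 had the highest G and C content of the windows matched and Map1a the same content as Map1b.

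Map4, a microtubule-associated protein found in many cell types, had 4, 3 and 5 peaks in the aged lists, against 2, 0 and 0 in the young lists. Its aged lists all lay above its young lists, which was the case for 1 of the 10 genes and for 11.9% of all genes with a peak. The reverse, more peaks in every young list, held for 0 of the 10 and for 0.959% of all. The difference was 3.33 peaks per list (two-sided exact permutation p = 0.1, which is as low as 3 lists against 3 can give). Adjusted over all genes with a peak by Benjamini-Hochberg, the exact permutation p for Map4 was 0.779, and 1.0 for each of the other 9 genes, so no gene passed 0.05. With lists cut to equal length, Map4 had 2, 2 and 3 peaks in the aged lists and 2, 0 and 0 in the young lists (exact permutation p = 0.3), so the ages then met at 2. At equal length 3.35% of all genes with a peak had more in every aged list and 3.44% more in every young list. With the peaks at or above the median score of their list the Map4 difference was 1.67 (exact permutation p = 0.3) and the ages also met. Map2 was then the gene with more peaks in every aged list, and the share over all genes was not computed for this setting.

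The Map4 region at the first start printed above, chr9:109931774-109931940, began 1933 bases into the span. The peak there began 59, 41 and 0 bases after that start in aged lists 1, 2 and 3 and was absent from the young lists. Its scores of 75.8, 193.9 and 213.0 lay between the 23.2nd and 61.8th percentile of the aged lists, and with lists of equal length the region no longer had a peak in all 3. The inner start was followed after 27 bases by a region of 1475 bases, chr9:110052048-110053522, with a peak in all aged lists and young list 1. A region of 242 bases, chr9:109978850-109979091, had a peak in aged lists 1 and 3 and in young list 1. The other 4 Map4 regions were found in 1 aged list each, with scores of 60.1 to 72.8, near the lowest score listed.

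Map1a and Map1b, the large structural proteins of axons and dendrites, each carried a constant region several kb long. In Map1a it was chr2:121299269-121307372, 8104 bases with the same ends in all lists, 38.1% of the span. It was the widest peak of the 10 genes, and its scores were 3100 in 5 lists and 1381 in young list 2. A further narrow region of 89 bases, chr2:121295454-121295542, had a peak in aged lists 1 and 2 (scores of 153.5 and 53.4) and lies where the spans of Map1a and Trp53bp1 overlap. Map1a thus had 2, 2 and 1 peaks in the aged lists and 1 in each young list (exact permutation p = 0.4). In Map1b the constant region was chr13:99429212-99435701, 6490 bases, with a score of 3100 in every list. A region of 4498 bases at the 3' end of the span, chr13:99421464-99425961, had a peak in all aged lists and in young lists 1 and 3. Its percentiles were 97.6, 83.3 and 92.3 in the aged lists and 89.1 and 91.0 in the young lists that had it, and young list 2 had no peak there. The peak at the Map1b start printed above was found in aged list 1, from the first transcribed base onward. The fourth region, of 289 bases, was found in aged list 3. Map1b had 3, 2 and 3 peaks in the aged lists and 2, 1 and 2 in the young lists (exact permutation p = 0.3), which overlap.

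Map2, the main microtubule-associated protein of dendrites, had the most peaks of the 10 genes. There were 7 in each aged list, against 5, 5 and 7 in the young lists (exact permutation p = 0.4). All 7 regions lay in the last part of its span of 267382 bases, with midpoints from 69.95% of its length onward. Constant in all lists were 5 of them: 78 bases at chr1:66362203-66362280, 114 bases at chr1:66399389-66399502, 1390 bases at chr1:66402513-66403902, 3741 bases at chr1:66412407-66416147 and 145 bases at chr1:66421646-66421790. The region of 78 bases stood at the 87.3rd, 72.5th and 79.7th percentile of the aged lists and at the 0.693rd, 64.7th and 71.4th of the young lists, so that it was close to the lowest score of young list 1. The region of 114 bases stood at the 85.2nd, 74.0th and 72.7th percentile of the aged lists and at the 78.8th, 6.47th and 71.0th of the young lists. The region of 3741 bases stood at the 97.6th, 92.7th and 91.5th percentile of the aged lists and at the 95.4th, 34.8th and 32.7th of the young lists. These intervals were thus listed in all 6 lists at very unequal ranks. The other 2 regions had a peak in all aged lists and in young list 3. One was chr1:66401444-66402235, with percentiles of 66.7, 2.86 and 44.1 in the aged lists and 24.2 in young list 3. The other was chr1:66438792-66442583, which reached the 3' end of the span, with percentiles of 94.7, 86.3 and 93.8 in the aged lists and 83.7 in young list 3. Without young list 3, the young list with 7 peaks, the Map2 difference was 2.0 in place of 1.33 peaks and the ages did not overlap. The exact permutation p was 0.1, which is as low as 3 lists against 2 can give. With the peaks at or above the median score of their list the Map2 difference was 2.67 (exact permutation p = 0.1). The share of all genes without overlap was not computed for either setting. With lists of equal length the Map2 difference was 0.67, from 6, 5 and 7 peaks in the aged lists and 4, 5 and 7 in the young lists (exact permutation p = 0.8).

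Map6, also called STOP, which protects microtubules against cold, had 1, 1 and 0 peaks in the aged lists and 0 in every young list (exact permutation p = 0.4). The 2 peaks did not lie in the same place. In aged list 1 the peak covered chr7:99267458-99269313, near the start of the span, with a score of 288.4. In aged list 2 it covered chr7:99317472-99317801, at 72.3% of the span, with a score of 64.9. With lists of equal length only the peak of aged list 1 remained.

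The neurofilament subunits each had a constant region over the 3' part of the gene, above the 93rd percentile of its list at both ages. In Nefl, the light subunit, the region chr14:68087308-68089095 was the only one, with 1 peak and a score of 3100 in every list. Its peaks shared their first base and were 1576 to 1788 bases wide. Nefm, the medium subunit, had its constant region at chr14:68119283-68121384, 2102 bases with the same ends and a score of 3100 in every list, of which 262 bases lay beyond the annotated 3' end. A region of 1265 bases at the start of Nefm, chr14:68123740-68125004, had a peak in aged lists 1 and 2, with scores of 495.5 and 76.6. It overlaps the lncRNA gene A230070E04Rik, whose strand is not in the annotation used, so the gene of these peaks is uncertain. Nefm thus had 2, 2 and 1 peaks in the aged lists and 1 in each young list (exact permutation p = 0.4).

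Nefh, the heavy subunit, showed how a count of peaks depends on how an interval was split. Its constant region, chr11:4938754-4941415, overlaps the lncRNA gene Gm35321. It was listed as 2, 1 and 2 peaks in the aged lists and as 1, 1 and 2 in the young lists. Its scores were 3100 and 3039, 2356, and 3100 and 2631 in aged lists 1, 2 and 3, and 3100, 2122, and 2268 and 1510 in young lists 1, 2 and 3. The bases covered in Nefh were 2.61 ± 0.0582 kb in aged and 2.58 ± 0.0859 kb in young lists (SD, n = 3 each; exact permutation p = 0.6). Aged list 3 had another peak of 125 bases in Nefh, with a score of 101.0. In total Nefh had 2, 1 and 3 peaks in the aged lists and 1, 1 and 2 in the young lists (exact permutation p = 0.7).

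Stmn2, a stathmin that binds tubulin and promotes the disassembly of microtubules in growing axons, had 3, 4 and 4 peaks in the aged lists, against 3, 3 and 2 in the young lists (exact permutation p = 0.3). Constant in all lists were chr3:8545573-8546338 and the narrow region chr3:8554792-8554983, whose 192 bases had the same ends throughout and scores of 1294 to 3100. The wider of them stood at the 90.6th, 91.2nd and 83.4th percentile of the aged lists and at the 86.6th, 73.6th and 85.9th of the young lists. A further region, chr3:8548130-8548773, had a peak in all aged lists and in young lists 1 and 2. A region at the 3' end of the span, chr3:8560266-8561604, had a peak in aged lists 2 and 3, with scores of 131.1 and 208.7. Gap43, a phosphoprotein of growth cones and presynaptic terminals, had 2 regions in every list and no other. The region at its start covered 179 bases and scored 3100 in every list. The other, chr16:42291799-42292366, covered 568 bases, with scores from 1570 in young list 2 to 3233 in aged list 1.

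Counted in bases, the peaks of the 10 genes covered 42615, 43506 and 41691 bases in the aged lists, against 34140, 27787 and 36301 in the young lists. The ratio of the means was 1.30. The mean width of these peaks was 1631 ± 105 bases in the aged and 1937 ± 83.8 bases in the young lists (SD, n = 3 each). Their median width was 673, 792 and 644 bases in the aged and 864, 645 and 851.5 in the young lists, so the medians overlapped. The mean width and the ratio of bases over all genes are not given here. In Map4 the cover was 2.93 ± 0.887 kb in aged and 0.572 ± 0.991 kb in young lists, and in Stmn2 2.36 ± 0.752 kb and 1.06 ± 0.342 kb (SD, n = 3 each, exact permutation p = 0.1 for both genes). The ages did not overlap in these 2 genes, beside 14.2% of all genes with more covered bases in every aged list, and in 0 of the 10 was cover higher in every young list, beside 2.24%. In Map2 the cover was 9.5 ± 0.199 kb in aged and 6.65 ± 2.53 kb in young lists (SD, n = 3 each, exact permutation p = 0.3). Gap43 was covered over 0.747 kb in every list.

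**Figure D4:**
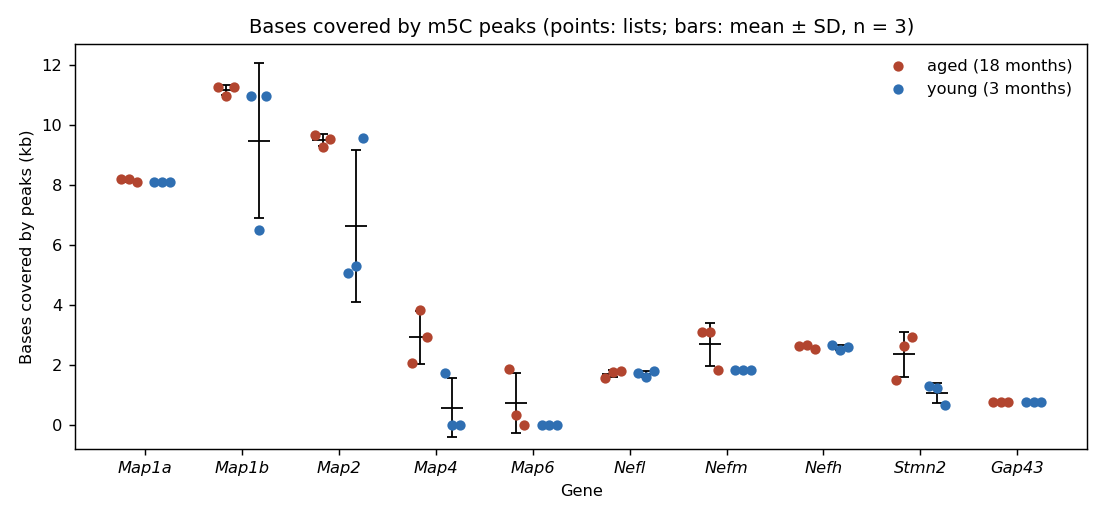
Bases covered by m5C peaks in kb (vertical axis) in each of the 10 genes (horizontal axis), for aged lists on the left and young lists on the right of each gene. Points are lists and black bars are the mean ± SD (n = 3). Map4 and Stmn2 are the genes whose aged lists all lie above their young lists, and in Map1b and Map2 the aged lists lie close together while the young lists spread more widely.

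Other genes of the same system were counted from lists of names. Of 14 tubulins, 10 had a peak in any list and 3 in all lists, and they held 8.33 ± 1.15 peaks in aged and 6.33 ± 2.52 in young lists (SD, n = 3 each). Tuba1a, Tuba1b and Tubb3 had 1 peak in every list. Tuba8, Tubb2a and Tubb2b had equal means at both ages, but their counts varied between lists. The highest difference was that of Tuba4a, with 1 peak in each aged list against 1, 0 and 0 in the young lists. Tubg1 had the same difference, with 1, 2 and 0 against 0, 0 and 1. The tubulin genes are similar in sequence, so the gene of a peak is uncertain. Of 26 other microtubule-associated and plus-end proteins, 23 had a peak, 14 in all lists, with 83.3 ± 2.31 peaks in aged and 59.3 ± 5.03 in young lists. More peaks in every aged list were found in 4 of them and more in every young list in 0, beside 11.9% and 0.959% of all genes with a peak. Clip2, a linker of microtubule plus ends, had 10, 11 and 9 peaks in the aged lists, against 5, 4 and 6 in the young lists. Clasp1, which stabilises plus ends, had 1 in each aged list, against 1, 3 and 4 in the young lists, the lowest difference of that list.

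Of 7 other stathmins and growth-associated proteins, all had a peak, with 10.3 ± 0.577 peaks in aged and 6.0 ± 1.0 in young lists (SD, n = 3 each), and 2 had more in every aged list, beside the same 11.9%. Stmn3, a stathmin of neurons, had 2, 3 and 2 peaks in the aged lists and 1 in each young list, while Basp1, a growth-cone protein, had 2 in every list and Stmn1 1 in every list. Of 10 other intermediate filaments, 8 had a peak, with 10.3 ± 0.577 peaks in aged and 9.67 ± 0.577 in young lists and 0 genes without overlap of the ages. The neuronal filament Ina had 2, 3 and 1 peaks in the aged lists and 1, 1 and 2 in the young lists. Gfap, the filament of astrocytes, had 2 in each aged list and 2, 1 and 1 in the young lists. Des, the filament of muscle, had 0 in every aged list and 1, 0 and 1 in the young lists, and the nuclear lamin Lmnb1 had 0, 1 and 1 in the aged lists and 1, 2 and 1 in the young lists. Of 25 kinases, phosphatases and tubulin-modifying enzymes, 20 had a peak, with 52.0 ± 7.0 peaks in aged and 34.7 ± 6.51 in young lists. In that list 3 genes had more peaks in every aged list and 1 in every young list, beside 11.9% and 0.959% of all genes. Agtpbp1, which removes glutamate from tubulin tails, had 9, 10 and 11 peaks in the aged lists, against 7, 5 and 8 in the young lists. Vash2, a tubulin tyrosine carboxypeptidase, had 0 in every aged list and 1 in every young list, a pattern held by 0.82% of all genes with a peak. The ratios of aged to young peaks were 1.78 for the 5 microtubule-associated proteins first described, 1.4 for the neurofilament subunits and 1.21 for Stmn2 and Gap43. They were 1.07 to 1.72 over the 5 lists of other genes, beside 1.52 for peaks in all protein-coding genes. The ratio of 1.78 rests largely on Map4, whose difference was 3.33 peaks per list, where the others of those 5 had 0.67 to 1.33.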

How the data were processed

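Per the submitters' processing notes, cutadapt 1.9.3, HISAT2 2.0.4 and the build mm10 were used. The authors deposited 6 peak lists, 1 per IP library and its input, so peaks were not called on pooled samples. The peak names carry the word MACS; version, settings, depth and the scale of the deposited score are not stated in the labels or files. Coordinates count from 1.

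Gene spans came from RefSeq GRCm38.p6 (21896 protein-coding genes). A gene's strand was that of the RefSeq promoter table (4 of the 10 genes) or of most of its peaks (6 of 10); where both were known they were equal in 99.6% of 7266 genes. Peaks were assigned, joined into regions, counted and tested in Python 3.11.15 with numpy 2.4.6 and pandas 2.3.3, after a test on simulated lists. Peaks per gene were tested between the 3 aged and 3 young lists by exact permutation (two-sided), with Benjamini-Hochberg adjustment over 9385 genes with a peak. Totals over the 10 genes got no test. The genes and gene lists were chosen with earlier results of these data known. All 10 genes were named; genes of the other lists were named when restricted to 1 age, or from those with the highest or lowest difference of their list.

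Alternatives were lists of equal length, peaks at or above the median score of their list, at least 50% of the peak inside the span, either strand, joining peaks up to 100 bases apart, other end distances, leaving out each list, a block by list number and, chosen after seeing the data, counting each region once per list.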

Additional observations from a re-analysis of the deposited data

Results flagged for a closer look

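Nefl had peaks on the strand opposite to the one assigned to it, which the counts by strand leave out. That strand was taken from most of its own peaks, so opposite here means the strand with fewer peaks. They were present in 4 of the 6 lists, aged lists 1 and 2 and young lists 1 and 3, with scores of 1834, 595.2, 53.7 and 312.6. Each ended at the same base inside Nefl (chr14:68084970), covered 1108 bases of its span and reached 124 to 491 bases beyond its start. None of the other 9 genes had a peak on the other strand. Over all genes, 0.336% of the peaks that lie in a single gene span were on the other strand, and 26 genes had such peaks in 4 or more lists. Where the strand was set by the peaks, those on the other strand are the fewer by construction. These comparisons are therefore partly fixed in advance.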

How the results depend on the processing

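With lists of equal length (8549 peaks), the difference in peaks per list over the 10 genes (aged minus young) was 5.0 in place of 9.33, that per 10000 peaks 5.85 in place of 0.48 and that in the share of peaks near a gene end 4.88 in place of 2.47 percentage points. The genes with more peaks in every aged list and the regions present in every aged and absent from every young list then numbered 0 and 0, each in place of 1. Over all genes with a peak, 3.35% had more in every aged list at equal length, and the share of regions was not computed. With the peaks at or above the median score of their list, the difference in peaks was 7.0, the share near a gene end reversed to -0.784 percentage points, and 9 in place of 14 regions had a peak in all lists. Map2 in place of Map4 then had more peaks in every aged list. That share also reversed, to -0.889, when 500 bases counted as near an end. Leaving out 1 list gave 1 to 4 genes with more peaks in every aged list and 1 to 3 regions restricted to the aged lists, since the rule then asks for fewer lists. Map4 was among those genes whichever list was left out. Without aged list 3 the others were Map1a, Map6 and Nefm, without aged list 1 Stmn2, without aged list 2 Map1b and without young list 3 Map2. Shares over all genes and regions were not computed with a list left out or for the peaks at or above the median score, so these calls have no background. The cause of the other shifts was not tested. Lists of the same number did not deviate together (r over regions -0.0122 to 0.0164), so the numbers were not taken as pairs. A replicate block cannot change a difference of means. The differences of 9.33 peaks, 1.33 genes with a peak, 9861 bases and 0.48 peaks per 10000 therefore stay the same by construction. The block changes the p-value alone, and the exact sign-flip p for Map4 was 0.25, the smallest that 3 pairs allow. For single genes, 120 alternative values were computed and none reversed its sign, but part of this was fixed in advance. Nefl and Gap43 had a main difference of 0, which has no sign to reverse. The block values are among the 120 and equal the main values by construction. Counting either strand, or using the alternative rule for overlap with the span, also left the difference of every gene as it was. The absence of reversals therefore rests on the remaining values alone. The unknown number of reads limits what the absence of a peak can show.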
